A study of Mus musculus with 4 samples.

Results

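The cadherin superfamily was read in 4 mouse cerebellar tumors through 88 probe sets, which stood for 52 genes. Members were taken by gene symbol from the probe sets to which the platform annotation gives a single symbol, 24679 probe sets for 13320 genes in all. They comprised 12 classical cadherins (3 of type I and 9 of type II), 2 other cadherins (Cdh13 and Cdh23), 28 protocadherins (11 non-clustered and 17 of the clusters), 4 Fat and Dachsous genes, 3 Celsr genes and 3 calsyntenins. All 17 clustered protocadherins lay on mouse chromosome 18, in the gene table of GRCm38.p6, and 16 of them belonged to the beta cluster. A further 4 probe sets, annotated with 9 or 14 genes of the alpha cluster at once, were not members.

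Each tumor was named Chd7-het in its sample title, the one place that gives a genotype, came from mice of a mixed CD1 and C57BL/6 background, and was hybridised to its own Affymetrix array. Chd7 encodes a chromatin remodeller. The tumors are called 1, 2, 4 and 5 after those titles. All belong to 1 group, normal cerebellum and other genotypes are not analysed here, and each tumor was therefore compared with the remaining 3. The labels name no Cre driver, no further allele and no age, and they do not say whether tumors shared a litter.

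Cadherins are adhesion proteins of the cell surface whose extracellular repeats bind calcium and the same protein on a neighbouring cell. The cytoplasmic tails of classical cadherins bind beta-catenin and p120-catenin, which tie the junction to actin. Protocadherins lack these catenin-binding tails. The clustered ones are chosen promoter by promoter in each neuron and mark its surface, and the non-clustered ones are expressed in zones of the developing brain. In the cerebellum, classical cadherins take part in the adhesion and migration of granule cells.

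Pcdh9 was the protocadherin gene called in tumor 1. Cdh15, the classical cadherin gene with a 2-fold difference in tumor 5, did not pass the test over all genes. Cdh4, 1.88-fold lower in tumor 1, passed the adjusted p threshold but not the 2-fold one. No promoter was available for Cdh4. The promoters of Pcdh9 and Cdh15 run from 250 bases before to 50 after the RefSeq start on GRCm38.p6. They are shown with their E-boxes (CANNTG, which reads the same on both strands), the motif of Atoh1 and other basic helix-loop-helix factors. E-boxes are in capitals. The Pcdh9 promoter, chr14:93890630-93890929 on the minus strand, held 0, and that of Cdh15, chr8:122848124-122848423 on the plus strand, held 4.
Pcdh9: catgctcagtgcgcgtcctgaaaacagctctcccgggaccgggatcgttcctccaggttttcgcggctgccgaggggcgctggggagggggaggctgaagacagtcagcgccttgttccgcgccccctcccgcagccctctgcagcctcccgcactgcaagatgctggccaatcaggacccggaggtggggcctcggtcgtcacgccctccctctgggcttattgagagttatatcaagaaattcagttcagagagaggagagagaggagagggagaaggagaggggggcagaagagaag
Cdh15: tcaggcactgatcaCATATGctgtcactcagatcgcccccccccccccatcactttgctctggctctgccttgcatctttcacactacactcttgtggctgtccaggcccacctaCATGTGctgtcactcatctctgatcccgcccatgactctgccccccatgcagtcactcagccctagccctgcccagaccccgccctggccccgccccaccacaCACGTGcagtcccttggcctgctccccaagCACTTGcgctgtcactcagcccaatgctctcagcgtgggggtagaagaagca
Of 27025 promoters of this length, 72.1% held an E-box, and 13 of the 25 members with a promoter in the table did. CAGGTG or its complement CACCTG, an E-box form bound by the repressors Snai1 and Zeb1, itself a subset of the E-boxes, was found in 5413 of the 27025 promoters and in 6 of the 25. The GLI motif TGGGTGGTC or its complement GACCACCCA was in 0.244% of all promoters and in 0 of the 25. A match shows only that these letters are present.

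Values are log2 MAS5 signals. Signals at or under 5.12 (34.8 on the linear scale) were taken as the floor, and a gene was tested if its mean over the tumors reached 5.87 (58.5 linear). Of the 52 member genes, 22 lay above the floor in all 4 tumors, 12 in some and 18 in none, each read by its brightest probe set. The mean filter was passed by 17 members (32.7%), against 63.8% of all genes. Among them were 6 of the 12 classical cadherins and 7 of the 28 protocadherins, so each statement on tested members leaves out 35 genes, which are given further on. Signals of different probe sets depend on their oligonucleotides, and levels of different genes were therefore not compared. Bulk tissue was measured, in which fewer cells of a type and less RNA per cell cannot be told apart.

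The share of probe sets above the floor ranged over the arrays from 59.1% to 61.3%. The floor came from the arrays' own 40th percentiles, so this share was nearly fixed in advance and does not measure array quality. Markers of other cells differed between the tumors. All 11 markers of granule cell progenitors lay past the filter, with a summed linear signal of 15628.4 in tumor 1 and 15688.5 to 16563.3 in the others. Within that list Pax6 was called higher in tumor 1 (2.39-fold, adjusted p = 0.0317), and Atoh1 read 9.92 in tumor 1 against 10.54, 10.81 and 10.90 in tumors 2, 4 and 5 (adjusted p = 0.103). Markers of Purkinje cells and inhibitory neurons summed to 3894.9 in tumor 1 against 286.4 to 562.9 in the others, of mature granule and other neurons to 8469.3 against 3329.0 to 4344.5, and of oligodendrocytes to 5338.7 against 745.9 to 1614.7. Markers of astrocytes and Bergmann glia summed to 5292.8 in tumor 1 against 3684.2 to 4350.1 in the others, and of mural, meningeal and fibroblast cells to 1534.6 against 738.3 to 1066.0. Within the astrocyte list 7 of 8 were higher in tumor 1 than the mean of the others, Aqp4 and Slc1a2 by only 0.07 and 0.0029. Gfap was lowest there, at 6.55 against 7.52, 7.69 and 7.40 in tumors 2, 4 and 5. Endothelial markers summed to 326.5 in tumor 1 against 223.4 to 293.2 in the others, with 5 of 7 measured under the floor in all tumors. Markers of microglia summed to 3741.1 in tumor 4 against 2584.8 to 2854.3 in the others. Those of choroid plexus and other epithelium summed to 5076.5 in tumor 5 against 159.9 to 607.5 in the others, with 3 of 6 measured under the floor in all tumors. That sum was mostly Ttr (12.16 on the log2 scale in tumor 5), while Clic6 read 9.15 in tumor 1 and 8.73 in tumor 5. Of the marker genes that passed the filter also without tumor 1, those called higher in tumor 1 were 2 of 2 of Purkinje cells and inhibitory neurons, 1 of 4 of mature neurons, 2 of 3 of oligodendrocytes and 1 of 7 of astrocytes. Gad2 lay under the floor in every tumor.

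**Figure D1:**
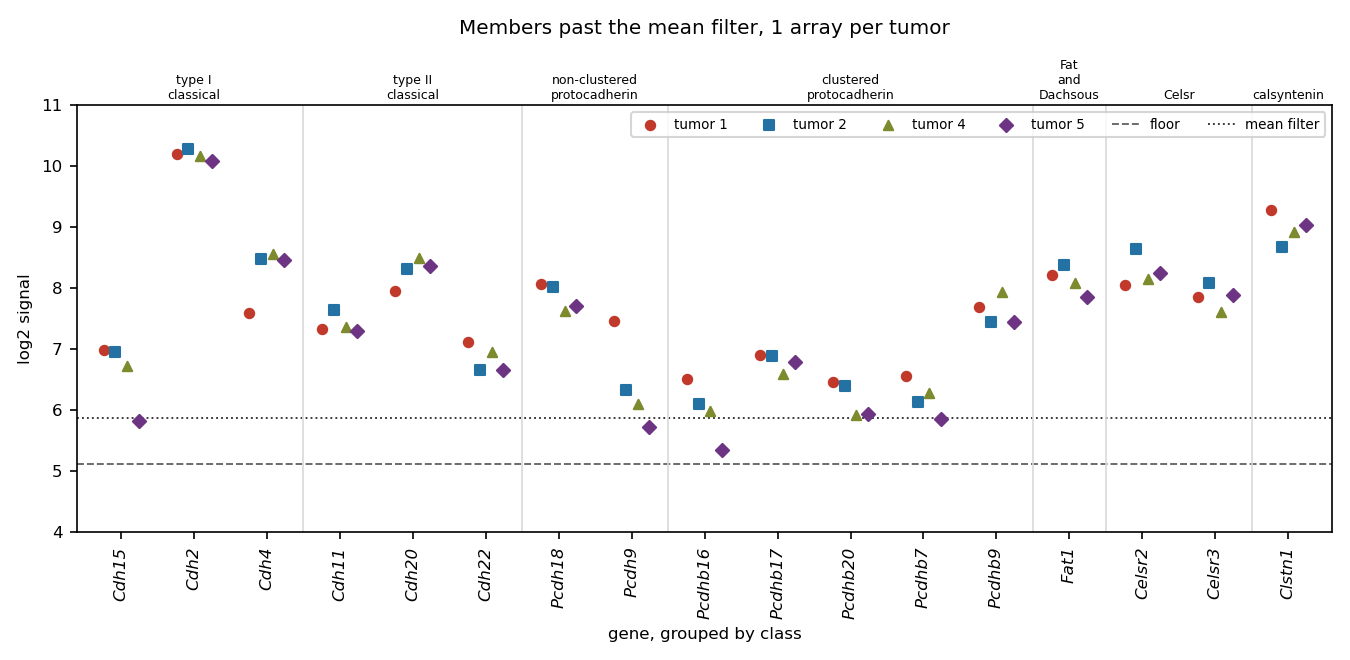
Log2 signal (vertical axis) of the 17 member genes past the mean filter, grouped by class along the horizontal axis, with 1 point per tumor and no error bar because each tumor has 1 array. The dashed line is the floor (5.12) and the dotted line the mean filter (5.87); Cdh4 and Pcdh9 stand apart in tumor 1 and Cdh15 in tumor 5, while Cdh2 spans 10.08 to 10.28.

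The 3 type I classical cadherins were each above the floor in every tumor, and each behaved differently. Cdh2, which encodes N-cadherin, the main classical cadherin of neural tissue, read 10.20, 10.28, 10.18 and 10.08 in tumors 1, 2, 4 and 5 (mean 10.19 ± 0.08, SD, n = 4). Of all tested genes, not matched for signal, 11.6% had a smaller SD. Its dimmer probe set, 1449244_at, read between 8.28 and 8.52.

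Cdh4 encodes R-cadherin, a classical cadherin of retina and brain. On probe set 1449422_at it read 7.59 in tumor 1, against 8.47, 8.55 and 8.46 in tumors 2, 4 and 5. Tumor 1 lay below a tight set of the other 3 (mean 8.50 ± 0.05, SD, n = 3). The log2 difference was -0.91 (SE 0.16), and the signal was 1.88-fold lower. Its limma p, adjusted over all 8498 genes by the Benjamini-Hochberg method, was 0.0334, a threshold that 1.44% of all genes passed, but the difference was under the 2-fold required for a call. The other probe set, 1456397_at, read 7.10 in tumor 1 and 7.87, 8.02 and 7.99 in the others, so both stood lowest in tumor 1. The adjusted p was above 0.05 with quantile normalization (0.0511), with no mean filter (0.0561), with the floor at the 50th percentile (0.0713) and without tumor 4 (0.0708).

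Cdh15 encodes M-cadherin, known from muscle precursors and also from cerebellar granule cells. It read 5.82 in tumor 5, against 6.99, 6.95 and 6.72 in tumors 1, 2 and 4. Tumor 5 lay below the others, whose mean was 6.89 ± 0.15 (SD, n = 3). The log2 difference of -1.07 (SE 0.23), 2.10-fold lower in tumor 5, did not pass the test over all genes (adjusted p = 0.957, unadjusted p = 0.00211). Set against tumors 2 and 4 alone, it was -1.02 and passed (adjusted p = 0.0217), in a fit that called 0.554% of all genes. A single probe set reads Cdh15. In tumor 5, 0.788% of all genes differed by 2-fold or more, and Cdh15 was the 1 member of 17 to do so.

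Of the 9 type II classical cadherins, 3 were past the filter, and none of these passed the test in any tumor. Cdh20, a cadherin of brain regions, read 7.95 in tumor 1, against 8.32, 8.49 and 8.37 in tumors 2, 4 and 5, a log2 difference of -0.44 (SE 0.16, adjusted p = 0.318). Cdh22, a cadherin of pituitary and brain, read 7.11 in tumor 1, against 6.65, 6.94 and 6.65 in the others (0.36, SE 0.22, adjusted p = 0.619). Cdh11, a cadherin of mesenchyme and brain, read 7.64 in tumor 2, against 7.33, 7.36 and 7.30 in tumors 1, 4 and 5 (0.31, SE 0.16, adjusted p = 0.795).

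Among the protocadherins, Pcdh9 was higher in tumor 1. It is a non-clustered protocadherin of the delta family, expressed in neurons of the developing brain. Probe set 1429861_at read 7.47 in tumor 1, against 6.34, 6.09 and 5.72 in tumors 2, 4 and 5 (mean of the other 3 6.05 ± 0.31, SD, n = 3). Tumor 1 stood above a group that was itself spread over 0.61 on the log2 scale. Pcdh9 rose by 1.41 (SE 0.27), 2.67-fold, with a limma adjusted p of 0.0459. It was the 1 member called in tumor 1 among 17 tested (1 of 17), against 1.29% of all genes, of which 89 genes (1.05%) were called higher and 21 (0.247%) lower. It was also the 1 member of 17 that differed by 2-fold or more, as 2.26% of all genes did. In tumor 2, 0 members and 0.565% of all genes differed by that much, and in tumor 4, 0 members and 0.188%. In tumors 2, 4 and 5 limma called 0 members and 0.0% of all genes, with 1, 0 and 2 of 17 members at an unadjusted p under 0.05, as were 5.84%, 0.553% and 3.60% of all genes. In tumor 1 it was 3 of 17, against 11.2% of all genes.

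The call of Pcdh9 stood close to its threshold. The adjusted p was 0.0658 with quantile normalization, 0.0713 with the floor at the 50th percentile, 0.0680 with probe sets of each gene averaged and 0.0917 with no mean filter. Over 9 other settings in which Pcdh9 was tested, the difference lay between 1.25 and 1.56. The eBayes fit without trend, which leaves the difference unchanged, is not among these and kept the call. Probe set 1442659_at of the same gene read 6.20 in tumor 1, against 5.15, 5.25 and 5.49 in tumors 2, 4 and 5, and 1458269_at, under the floor throughout, 3.96 against 3.36, 3.57 and 3.09. Both probe sets above the floor were highest in tumor 1, the tumor in which the neuronal and oligodendrocyte markers above were also highest. The part of those cells in the Pcdh9 signal was not tested.

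**Figure D2:**
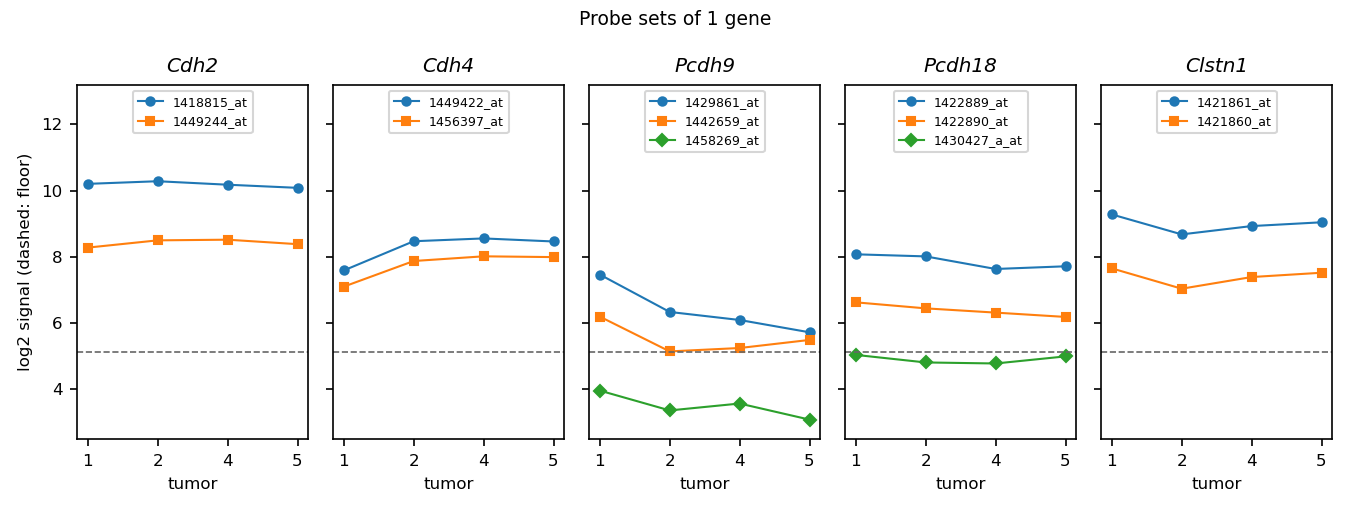
Log2 signal (vertical axis) in tumors 1, 2, 4 and 5 (horizontal axis) of each probe set of 5 genes read by more than 1 probe set; lines join the values of a probe set and the dashed line is the floor. Both Cdh4 probe sets are lowest and both Pcdh9 probe sets that exceed the floor are highest in tumor 1; the remaining one lies under the floor throughout.

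Pcdh18, another delta protocadherin, read 8.08 and 8.01 in tumors 1 and 2 and 7.63 and 7.71 in tumors 4 and 5 (mean 7.86 ± 0.22, SD, n = 4). On the dimmer probe set 1422890_at tumors 1 and 2 again read above 4 and 5 (6.63, 6.44, 6.32 and 6.19 in tumors 1, 2, 4 and 5). There tumor 5 was lowest, and on the brightest tumor 4. Probe set 1430427_a_at, under the floor throughout, read 5.04, 4.81, 4.78 and 5.00 and did not repeat that order. In tumor 4 against the others the brightest probe set differed by -0.30 on the log2 scale (SE 0.23) and was not called.

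Of the 17 clustered protocadherins, which lie in tandem and share much sequence, so that neighbours may cross-hybridise, 5 beta genes were past the filter. Pcdhb16 read 6.51 in tumor 1, against 6.10, 5.99 and 5.35 in tumors 2, 4 and 5. Its log2 difference was 0.70 in tumor 1 (adjusted p = 0.453) and -0.85 in tumor 5 (adjusted p = 0.957). Without tumor 1 its mean fell under the filter, so it was tested only through the tumor in which it was highest. Its other probe sets, 1441358_at and 1450216_at, lay under the floor.

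Pcdhb7 read 6.57 in tumor 1, against 6.14, 6.28 and 5.85 in tumors 2, 4 and 5 (0.48, SE 0.24, adjusted p = 0.535). Pcdhb20 read 6.46 in tumor 1, against 6.39, 5.91 and 5.93 in the others, and Pcdhb17 6.91 against 6.89, 6.60 and 6.79. Pcdhb9 read 7.94 in tumor 4, against 7.70, 7.44 and 7.44 in tumors 1, 2 and 5 (0.42, SE 0.22, adjusted p = 1.00). Of these 5 beta genes, 4 were highest in tumor 1, against 23.4% of all tested genes, and none passed the test. Pcdhb16, among those 4, was tested only through tumor 1.

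**Figure D3:**
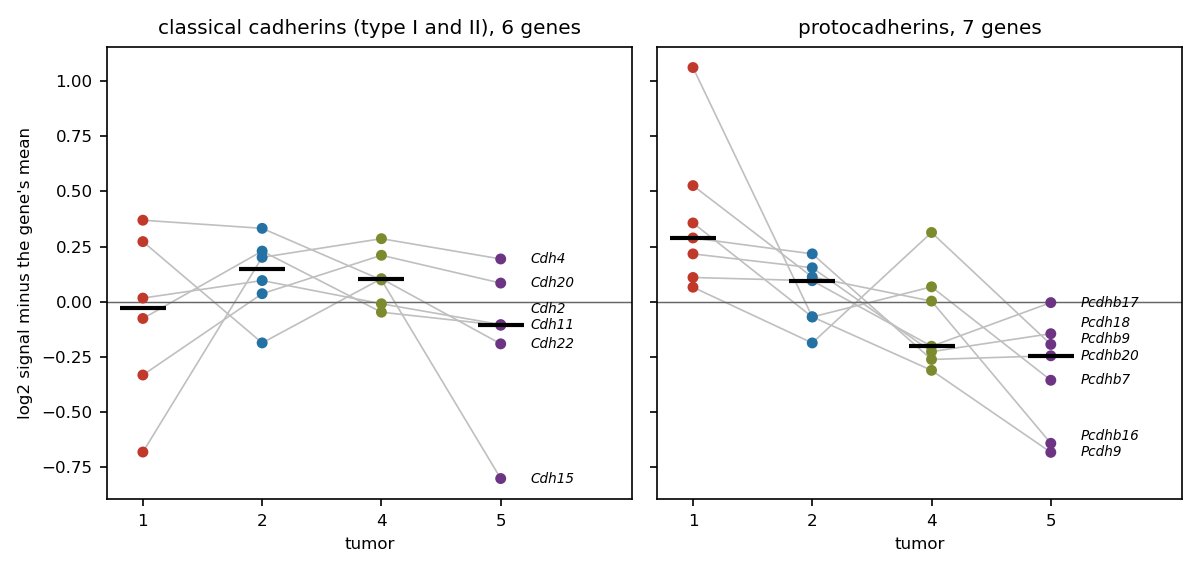
Log2 signal minus the gene's own mean over the 4 tumors (vertical axis), by tumor, for the 6 classical cadherins (left) and the 7 protocadherins (right) past the filter; each point is a gene, grey lines join the points of a gene and black bars are class medians. Protocadherins lie above 0 in tumor 1 and below it in tumor 5, and the classical cadherins lie on both sides in each tumor.

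Classical cadherins and protocadherins were then read side by side as classes. In tumor 1, 3 of 6 classical cadherins were higher than the mean of the other tumors and 3 lower, with a median log2 difference of -0.04 and a range of -0.91 to 0.49. All 7 tested protocadherins were higher (7 of 7), with a median of 0.39 and a range of 0.09 to 1.41. Of these, 5 are beta-cluster genes that may cross-hybridise. The 7 may therefore not be separate readings, in this tumor or the others. The summed markers of Purkinje cells, mature neurons, oligodendrocytes, astrocytes, mural cells and endothelium given above were highest in tumor 1. Gfap of the astrocyte list was lowest in it. The part of these cells in the protocadherin difference was not tested. Over all genes the median was -0.04, with 43.7% higher. Among the 4167 genes with mean signals in the range of the protocadherins, 49.8% were higher, with a median of -0.0013. Tumor 1 was the highest of the 4 tumors for 6 of the 7 protocadherins and 2 of the 6 classical cadherins, against 23.4% of all genes. The classical median was 0.04 without tumor 2 and -0.10 without tumor 5. Tumor 1 was the lowest for 0 of 7 protocadherins and 2 of 6 classical cadherins, against 31.3% of all genes. Pcdhb16 was among those 7 because of tumor 1 alone, and the 21 protocadherins below the filter do not enter these counts.

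In tumor 5, 2 classical cadherins were higher and 4 lower, with a median of -0.14. All 7 tested protocadherins were lower, with a median of -0.33 and a range of -0.91 to -0.0051. Over all genes the median was 0.04, and 56.9% were higher. The -0.91 was that of Pcdh9 on its brightest probe set. Its dimmer probe set 1442659_at, never under the floor, gave only -0.04, and tumor 2 was lowest there. Pcdh18 gave -0.19 on its brightest probe set and -0.28 on 1422890_at. For Pcdhb16 (-0.85) the other probe sets were under the floor and could not check the difference. Tumor 5 was the lowest of the 4 tumors for 4 of 7 protocadherins and 4 of 6 classical cadherins, against 22.1% of all genes. It was the highest for 0 of either class, against 30.9% of all genes. This contrast and that of tumor 1 share all 4 tumors and are not separate evidence. With quantile normalization the protocadherin medians were 0.31 in tumor 1 and -0.27 in tumor 5, and without tumor 1 that of tumor 5 was -0.24. Without tumor 4 it was -0.50, and without tumor 2 the classical median of tumor 5 was -0.08.

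In tumors 2 and 4 the classical cadherins had medians of 0.20 in tumor 2, with 5 of 6 higher, and 0.14 in tumor 4, with 4 of 6 higher. The protocadherins had 0.13 in tumor 2, with 4 of 7 higher, and -0.27 in tumor 4, with 3 of 7 higher. Over all genes the medians were -0.02 in tumor 2, with 47.2% higher, and 0.0037 in tumor 4, with 50.8% higher. Among genes with signals in the protocadherin range, tumor 4 had a median of -0.04, with 41.0% higher. Tumor 2 was the highest for 0 of 7 protocadherins and 2 of 6 classical cadherins, against 26.4% of all genes, and the lowest for 0 of either class, against 29.1%. Tumor 4 was the highest for 1 of 7 and 2 of 6, against 19.1%, and the lowest for 3 of 7 and 0 of 6, against 17.3%. These medians moved when 1 tumor was left out. That of the protocadherins in tumor 2 was 0.27 without tumor 1, 0.04 without tumor 4 and -0.15 without tumor 5, and in tumor 4 it was -0.08 without tumor 1. That of the classical cadherins in tumor 2 was 0.06 without tumor 1 and 0.10 without tumor 5, and in tumor 4 it was -0.0019 without tumor 5. No test compared the classes, since levels of a class in 4 single arrays give no spread of their own.

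The median SD over the 4 tumors was 0.23 for the 6 classical cadherins and 0.29 for the 7 protocadherins, against 0.17 for all 8498 genes. Any 2 tumors differed by 2-fold or more in 3 of 17 members (Cdh15, Pcdh9 and Pcdhb16), against 5.15% of all genes. Pcdhb16, also among the 7 protocadherins, passed the filter only through tumor 1, which also gave the top of its range. Pcdh9 ranged over 3.35-fold, and 98.8% of genes had a smaller SD. Mean signals lay between 5.99 and 7.86 for the tested protocadherins and between 6.62 and 10.19 for the classical cadherins. The values over all genes cover every signal level and were not matched to these. The SDs and the share of 2-fold ranges are therefore not read as a trait of the members. No test compared these SDs.

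**Figure D4:**
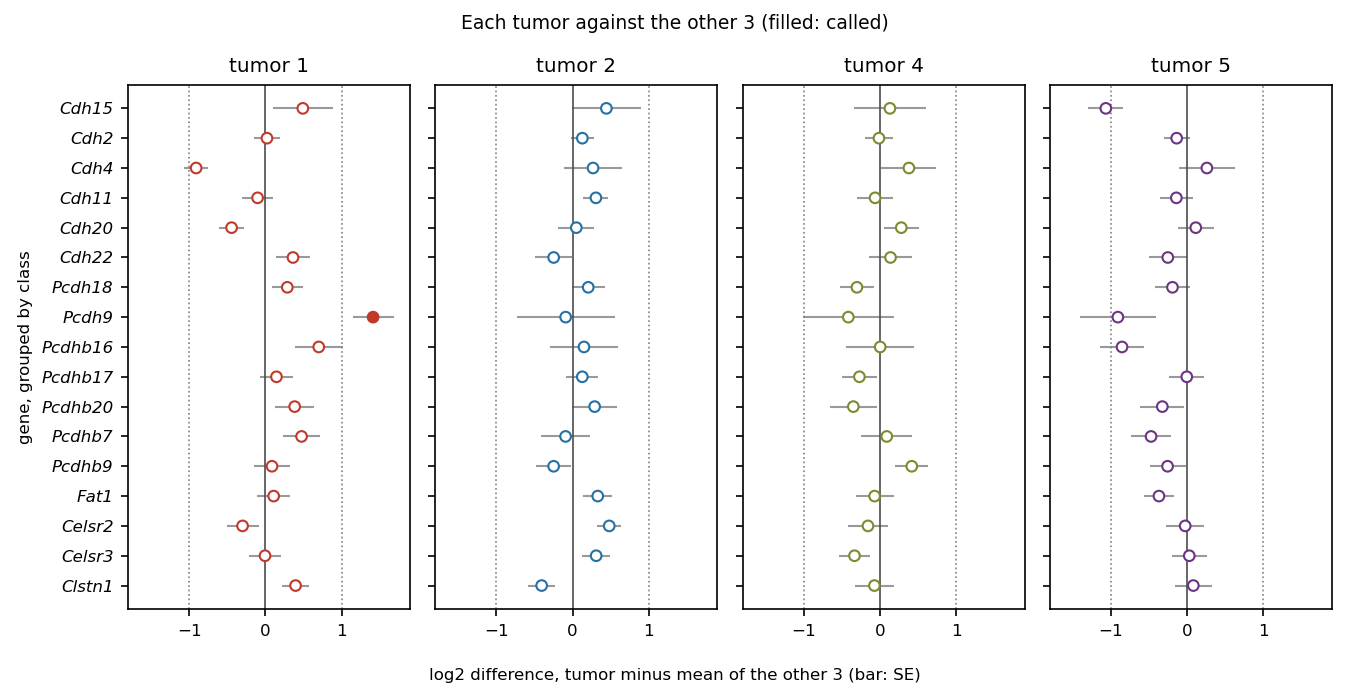
Log2 difference of each tumor from the mean of the other 3 (horizontal axis, bars are SE from limma) for the 17 member genes past the filter (vertical axis), 1 panel per tumor; dotted lines mark 2-fold and a filled point a called gene. Pcdh9 in tumor 1 is the filled point, and Cdh15 in tumor 5 passes the 2-fold line unfilled.

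The large and atypical members past the filter differed between any pair of tumors by at most 1.52-fold. Fat1, a giant cadherin that organises actin and cell polarity, read 7.86 in tumor 5, against 8.22, 8.39 and 8.09 in tumors 1, 2 and 4 (-0.37, SE 0.19, adjusted p = 0.957). Celsr2, a planar polarity cadherin with a receptor-like membrane part, read 8.63 in tumor 2, against 8.05, 8.16 and 8.25 in tumors 1, 4 and 5. Its difference of 0.48 (SE 0.16) had an unadjusted p of 0.0229 and did not pass over all genes (adjusted p = 0.795). Celsr3, known for the guidance of axon tracts, read 7.61 in tumor 4, against 7.86, 8.09 and 7.88 in tumors 1, 2 and 5 (adjusted p = 1.00).

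Clstn1, a calsyntenin that docks vesicles to kinesin, read 8.68 in tumor 2, against 9.28, 8.93 and 9.04 in tumors 1, 4 and 5 (-0.41, SE 0.18, adjusted p = 0.795). Its probe set 1421860_at read 7.04 in tumor 2, against 7.65, 7.39 and 7.52 in the others. Both were lowest in tumor 2 and highest in tumor 1. Of 7 genes with more than 1 probe set above the floor in all tumors, Cdh4, Clstn1 and Pcdh9 had the same tumor farthest from the rest on each.

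The 35 members below the filter had signals near or under the floor. On the brightest probe set of each, 5 lay above the floor in all 4 tumors, 12 in some and 18 in none. Above the floor were 15 of the 35 in tumor 1, 12 in tumor 2, 8 in tumor 4 and 5 in tumor 5. Over all 4822 genes below the filter, members and others, the shares were 30.0%, 25.8%, 25.4% and 24.3% in tumors 1, 2, 4 and 5. Tumor 1 gave the highest signal for 19 of the 35, against 35.3% of all genes below the filter. Signals under the floor have no reliable order, and no test was made on these members.

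Of the type II cadherins among them, Cdh10 was above the floor in every tumor, with 6.10 in tumor 1 against 5.61, 5.50 and 5.17 in tumors 2, 4 and 5. Cdh8, a cadherin of developing brain circuits, read 5.65 in tumor 1 and lay under the floor in the others (4.99, 4.68 and 4.02), as did its 2 dimmer probe sets in all tumors. Cdh6, Cdh7 and Cdh19 lay under the floor in all 4 tumors. So did Cdh5, which encodes VE-cadherin of endothelium, with 4.11, 3.93, 3.89 and 4.39 in tumors 1, 2, 4 and 5. Of 7 other endothelial markers, 5 lay under the floor as well, and Cldn5 and Esam above it. Cdh13, which encodes the lipid-anchored T-cadherin, read between 5.46 and 5.86.

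The non-clustered protocadherins below the filter included Pcdh10 and Pcdh17, both of the delta family. Pcdh10 read 5.89 in tumor 1, against 5.67, 5.23 and 5.04 in tumors 2, 4 and 5. Pcdh17 read 5.92 in tumor 1, against 5.63, 4.88 and 4.18, and its probe set 1436920_at 5.48 against 5.22, 4.78 and 3.52. Tumors 1 and 2 were above the floor and tumors 4 and 5 below it on both probe sets of Pcdh17. Pcdh7 and Pcdh19 exceeded the floor in tumor 1 alone, at 5.36 and 5.27. Pcdh11x (5.15) and Pcdh15 (5.33) did so in tumor 2 alone, and Pcdh20 in tumors 1 and 2 (5.42 and 5.31). Pcdh1 and Pcdh8 lay under the floor throughout.

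Among the clustered genes, Pcdhb3 (5.26 to 5.46) and Pcdhb10 (5.14 to 5.62) lay just above the floor in every tumor, Pcdhb22 was above it in tumor 1 alone (5.14), and 9 others, Pcdhgc4 among them, lay under it in all. Dchs1, the partner of Fat4 in planar polarity, read 5.72 in tumor 1, against 5.26, 5.33 and 5.02 in tumors 2, 4 and 5, and Fat3 4.94 in tumor 5 against 5.55, 5.49 and 5.55 in tumors 1, 2 and 4. Fat4 and Celsr1 lay under the floor in all tumors. Clstn2 read 5.18 in tumor 1 and 3.72, 3.28 and 2.20 in the others, and Clstn3 6.01 in tumor 1 against 5.26, 5.57 and 5.78.

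**Figure D5:**
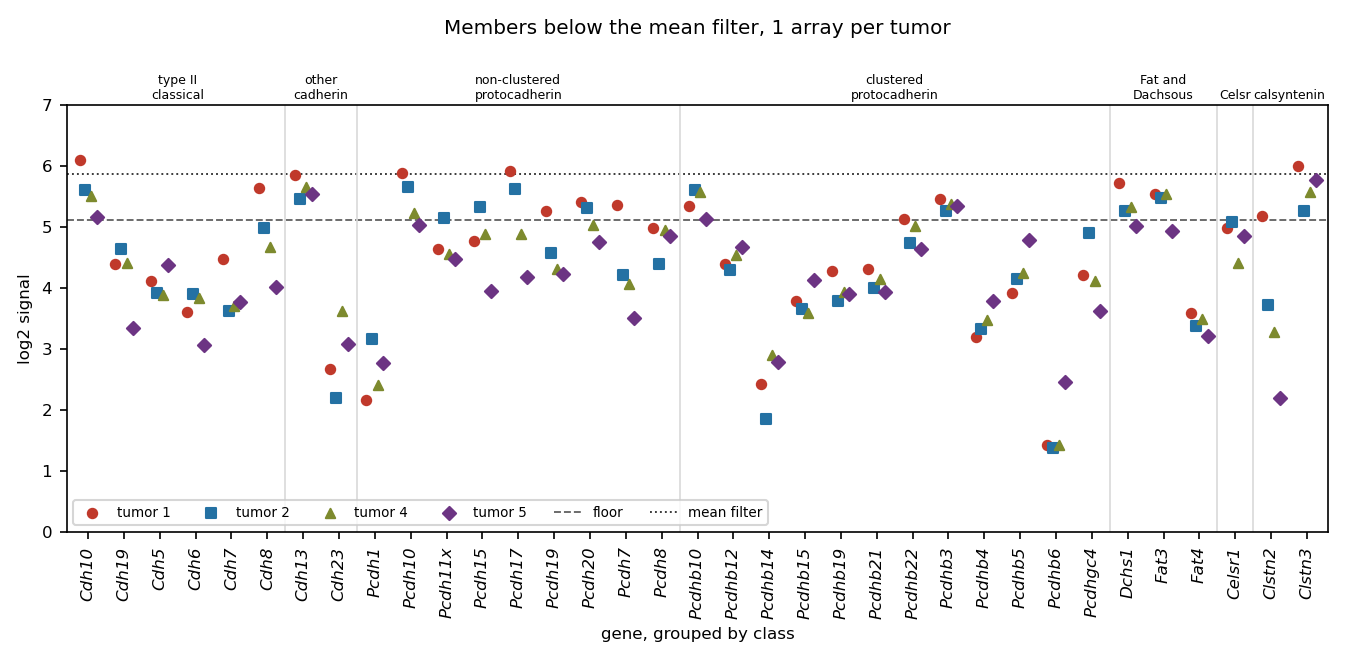
Log2 signal (vertical axis) of the 35 member genes below the mean filter, grouped by class along the horizontal axis, with 1 point per tumor; the dashed line is the floor (5.12) and the dotted line the mean filter (5.87). Tumor 1 is the highest point for 19 of the 35, and 18 genes lie under the floor in all tumors.

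Of the measured genes that work with the cadherins, limma called 0 in any tumor, and the lowest adjusted p was 0.168 (Nectin3, in tumor 1). At an unadjusted p under 0.05 there were 3 in tumor 1 (Nectin3, Tcf3 and Zeb1), 3 in tumor 2 (Dvl2, Wapl and Zeb2) and 0 in tumors 4 and 5, of 33 tested, against 11.2% of all genes in tumor 1 and 5.84% in tumor 2. Of the catenins and junction partners, 14 were measured and 10 were past the filter, and 0 of 10 were called in each tumor. Ctnnb1, the beta-catenin gene, read 11.45, 11.49, 11.75 and 11.74 in tumors 1, 2, 4 and 5, and Ctnna1, the alpha-catenin gene that links to actin, 9.77, 9.81, 9.80 and 9.89. Nectin3, an adhesion gene of the same junctions, read 8.40 in tumor 1, against 7.82, 7.58 and 7.85 in the others (0.65, adjusted p = 0.168). Of the repressors of cadherin genes, 3 of 5 measured were past the filter and 0 were called. Zeb1 read 9.83 in tumor 1, against 10.33, 10.22 and 10.40 in tumors 2, 4 and 5 (-0.49, adjusted p = 0.270). Snai1 and Snai2 lay under the floor in all tumors.

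Of the planar polarity and Fat partners, 6 of 11 measured were past the filter, and of the genes of cadherin cleavage (sheddases and gamma-secretase subunits) 5 of 7, with 0 called in each tumor. All 6 planar polarity and Fat partners were lower in tumor 4 than the mean of the others, by log2 differences of -0.25 to -0.04. Lower in the same tumor were 4182 of all 8498 genes. Of the regulators of the protocadherin clusters, 9 of 10 were past the filter and 0 were called. Ctcf, which loops cluster promoters to their enhancers, read 9.75 in tumor 1, against 10.06, 9.88 and 9.75 in tumors 2, 4 and 5. All 9 were higher in tumor 2 than the mean of the others, by 0.07 to 0.54, against 47.2% of all genes. In tumor 1, 1 of the 9 was higher and 8 were lower, with a median of -0.10, against 43.7% of all genes higher.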

How the data were processed

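The deposited table holds log2 signals from 4 arrays, 1 per tumor. Per the submitters' processing notes they were made with MAS5, and its version and target intensity are unknown here. Of 29304 probe sets, 61 were controls. Members were the probe sets with a single symbol in the platform annotation that matched the rule. The members and lists were chosen with earlier results of these data known. Signals were raised to a floor (the median of the arrays' 40th percentiles), probe sets whose mean reached the median of the means were kept, and each gene was read by its brightest, giving 8498 genes. Tumor by tumor, limma 3.58.1 under R 4.3.3 set 1 against 3 (lmFit, eBayes with trend). A gene was called at a Benjamini-Hochberg adjusted p under 0.05 and at least a 2-fold difference. The single tumor was taken to vary as the 3 do, and p-values measure only the spread between these tumors. Genes named in the text are the members called or 2-fold different in a tumor and, per class, the 4 with the largest SD and the 4 with the highest mean past the filter; members whose probe sets disagree, that lie near the filter or that lie under the floor are given by name or count. Promoters are from RefSeq on GRCm38.p6, where 25 of 52 members matched. MAS5 does not align array distributions, so differences that depend on signal can remain. Precision is limited by having 4 arrays.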

Additional observations from a re-analysis of the deposited data

Results flagged for a closer look

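Cdh4 in tumor 1, at 7.59 on the log2 scale, lay far from the other 3 tumors (8.47, 8.55 and 8.46): its gap to the nearest was 0.905 of the whole range, above Dixon's critical value for 4 samples. This was 1 of 17 member genes examined in this way, and chance marks about 1 gene in 20. The share of all genes marked by the same rule is not given here, so the count is not read as a result on the members.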

How the results depend on the processing

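In tumor 1 the count of called members was 1 as reported, and 0 when the floor was the 50th percentile, with no mean filter, with the filter at the 75th percentile (where Pcdh9 was not tested), with quantile normalization and with probe sets averaged, and it was 1 to 1 when tumor 2, 4 or 5 was left out. In tumor 5 it was 0 to 1 when a tumor was left out, the 1 being Cdh15 without tumor 1. With no mean filter, genes with every other tumor at the floor were left out, since they have no spread to test. With the filter at the 75th percentile 3 classical cadherins remained, with medians of -0.44 in tumor 1 and 0.11 in tumor 5. The count of members above the floor in all tumors, 22, was 36 with the floor at the 25th percentile and 13 with it at the 50th. In tumor 1, the protocadherin median kept its sign in 10 of 10 settings (0.26 to 0.50) and the classical one in 8 of 10 (-0.44 to 0.04). In tumor 5 the protocadherin median kept its sign in 10 of 10 (-0.50 to -0.19), and in tumor 2 in 8 of 10 (-0.15 to 0.27). The cause of these changes was not tested. No paired analysis was possible because the labels give a single group. Low signals limit what can be read of the 35 members below the filter.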

Other observations

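The probe sets annotated with several genes of the alpha protocadherin cluster can be read as no single gene. The brightest, 1420798_s_at, annotated with 14 genes at once, read 8.32 in tumor 1, against 7.44, 7.69 and 7.45 in tumors 2, 4 and 5. Probe set 1424341_s_at, also annotated with 14, read 6.77 in tumor 1, against 6.49, 6.60 and 6.28 in the others. A dimmer one, 1451769_s_at, read 5.44 in tumor 1, against 4.81, 4.78 and 4.51, all under the floor, in tumors 2, 4 and 5. The last, 1427687_at, annotated with 9, lay under the floor throughout, with 2.41 in tumor 1 against 2.66, 2.74 and 2.66. All but 1427687_at were highest in tumor 1, as were 23.4% of all tested genes. No test was made on these probe sets.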
